A study of Mus musculus with 40 samples.

Results

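Members of inhibitory immune checkpoints, 10 genes in all, were followed in CD11b+ cells of mouse brain: the ligands Cd274, Lgals9, Cd47 and Pvr, the receptors Pdcd1, Havcr2, Lag3, Sirpa and Lilrb4a, and the enzyme Ido1. They were chosen by name, and all 10 were found among the 54513 gene rows of each of 3 deposited tables of normalized expression. The study asked how 7aaRGD, a peptide of 7 amino acids carrying the integrin-binding RGD motif, changes the myeloid cells of experimental gliomas, alone or with an antibody to PD-1. The control peptide, 7aaRAE, carries RAE in place of RGD.

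All animals were male mice of 10 to 12 weeks, and every sample held CD11b+ cells sorted by flow cytometry from the tumor-bearing hemisphere, or from the brain of naive mice without a tumor. GL261, a mouse glioma line carrying tdTomato and luciferase, was implanted into C57BL/6 mice, and U87-MG RFP+, a human glioblastoma line carrying a red fluorescent protein and called U87-MG here, into Athymic Nude-Foxn1nu mice, which lack mature T cells. Peptide at 2 mg/ml or water as vehicle was delivered into the tumor by an osmotic pump. The first table held 3 naive C57BL/6 samples and 3 samples each of vehicle, 7aaRGD and 7aaRAE from GL261 tumors at 21 days post-implantation (DPI), with 2 animals pooled in a sample. The second held GL261 tumors at 28 DPI, with 1 animal in a sample: 4 vehicle, 4 7aaRGD, 3 anti-PD-1 (10 mg/kg, intraperitoneal) and 3 7aaRGD + anti-PD-1 samples, the groups without the antibody having received control IgG. The labels name nude mice for these 28 DPI samples, whereas the study's methods describe GL261 in C57BL/6 mice. The third held U87-MG tumors at 21 DPI, with 3 samples of 2 pooled animals each for vehicle, 7aaRGD and 7aaRAE.

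Immune checkpoints are pairs of receptors and ligands that dampen the activity of immune cells. PD-L1, the product of Cd274, and galectin-9, the product of Lgals9, engage PD-1 and TIM-3 on T cells and on myeloid cells, while CD47 on a target cell engages SIRPα on a phagocyte and restrains engulfment. In glioma, microglia and infiltrating monocytes and macrophages carry several of these molecules, and interferon-gamma is a classical inducer of Cd274 and Ido1.

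Values were taken as RPKM, a read density scaled by transcript length and library size. They were obtained by subtracting the constant of 2 that the deposited values contain. Levels of different genes can therefore be set side by side, whereas the 3 tables were normalized separately and levels of different tables were not tested against each other. Differences between groups were tested with limma on log2(RPKM + 1), a scale that understates the change of genes of low level, and p-values were adjusted over all genes tested in a comparison by the Benjamini-Hochberg method. A difference is said to pass the test, and a gene to have risen or fallen, where the adjusted p was under 0.05. Depth is unknown, since the tables give no read counts. In such bulk samples, fewer cells of a type and less RNA per cell cannot be told apart.

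The identity of the cells was checked first. The 7 pan-myeloid markers, among them Itgam, which encodes CD11b, all had a mean of at least 1 RPKM in every group. The summed level of 10 microglia markers was 17443 to 18040.1 RPKM in naive samples and 1438 to 2107 RPKM in vehicle samples at 21 DPI, and that of 10 monocyte and macrophage markers was 50.03 to 65.6 and 2047 to 3799 RPKM. The 16 T cell markers, including Cd3e, summed to 0.560 to 1.34 RPKM in naive samples and to 11.6 to 25.6 RPKM in the group where they were highest, 7aaRGD at 21 DPI.

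In the mouse assembly mm10, the receptor genes lie at chr1:94038305-94052553, minus strand (Pdcd1), chr11:46454935-46481255, plus strand (Havcr2), chr6:124904361-124911705, minus strand (Lag3), chr2:129592835-129632228, plus strand (Sirpa) and chr10:51490956-51496611, plus strand (Lilrb4a). The ligand genes lie at chr19:29367455-29388095, plus strand (Cd274), chr11:78962974-78984946, minus strand (Lgals9), chr16:49800533-49915010, plus strand (Cd47) and chr7:19903578-19921160, minus strand (Pvr), and Ido1 at chr8:24584136-24597009, minus strand. The values count reads over the exons of each gene. Of the distinct 50-base stretches of the Lilrb4a transcripts, 46.7% also occur in transcripts of other genes. The study counted only reads above a cutoff of mapping quality, so that reads of shared stretches could be left uncounted and the level of Lilrb4a is uncertain. That share was 1.68% or less in each of the other 9 genes.

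Promoters are shown for the 4 genes whose difference between 7aaRGD + anti-PD-1 and vehicle, described below, passed the test with any sample left out and under every processing alternative in which the gene was tested. These are the 250 bases before the annotated RefSeq start in GRCm38.p6, the assembly of mm10. They were searched on both strands for TTCNNNGAA, the gamma-activated sequence found near many genes induced by interferon-gamma, and for an interferon-stimulated response element, taken as GAAA and GAAA, or TTTC and TTTC, with 2 bases of any kind between them. Capitals mark a match.
Cd274 (chr19:29367188-29367437, plus strand): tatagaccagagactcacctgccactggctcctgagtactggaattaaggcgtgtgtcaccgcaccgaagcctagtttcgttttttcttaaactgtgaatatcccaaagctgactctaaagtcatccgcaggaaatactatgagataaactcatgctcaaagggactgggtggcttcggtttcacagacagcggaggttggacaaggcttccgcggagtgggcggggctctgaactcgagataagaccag
Pdcd1 (chr1:94052554-94052803, minus strand): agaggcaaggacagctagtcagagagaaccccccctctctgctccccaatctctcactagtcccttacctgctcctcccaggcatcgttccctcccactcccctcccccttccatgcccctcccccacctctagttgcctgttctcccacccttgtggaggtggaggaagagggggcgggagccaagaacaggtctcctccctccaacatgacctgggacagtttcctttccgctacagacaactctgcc
Havcr2 (chr11:46454681-46454930, plus strand): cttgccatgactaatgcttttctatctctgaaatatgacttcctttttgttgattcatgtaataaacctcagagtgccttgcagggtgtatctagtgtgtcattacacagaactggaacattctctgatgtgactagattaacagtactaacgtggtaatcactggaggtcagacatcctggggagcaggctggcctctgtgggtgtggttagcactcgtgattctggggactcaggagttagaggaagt
Lgals9 (chr11:78984925-78985174, minus strand): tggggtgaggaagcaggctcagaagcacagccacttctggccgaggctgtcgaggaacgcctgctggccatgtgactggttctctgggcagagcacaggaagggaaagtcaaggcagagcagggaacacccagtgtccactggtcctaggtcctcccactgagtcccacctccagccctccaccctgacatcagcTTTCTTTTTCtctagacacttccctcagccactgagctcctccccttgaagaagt
Only the Lgals9 promoter held a match among these 4, a response element beginning 55 bases before the start. Among 32851 mouse promoters of the same length, 2.98% held this element and 7.02% held the gamma-activated sequence. The Cd47 promoter held neither. Sirpa, Lilrb4a, Lag3, Pvr and Ido1 had no entry in the promoter table.

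The 10 genes differed widely in level. In the GL261 samples at 28 DPI, Sirpa ranked 103, Lag3 215, Lgals9 232, Havcr2 546 and Cd274 666 by mean RPKM among the 9737 protein-coding genes whose mean reached 1 RPKM. Cd47 had a middle place among the 10, with 26.3 to 36.4 RPKM over the 14 samples, whereas Lilrb4a had 6.53 to 20.2 RPKM. Pvr, the ligand of TIGIT, and Pdcd1 lay near the bottom of the expressed genes, with 2.54 to 4.32 and 0.715 to 4.69 RPKM. Ido1 never exceeded 0.475 RPKM in any of the 35 samples and stayed below the mean of 1 RPKM required for a test, so that 9 of the 10 genes were tested.

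The first comparison asked how the genes differ between CD11b+ cells of naive brain and of GL261 tumors under vehicle at 21 DPI. Cd274, which encodes PD-L1, rose most, 27.9-fold, and Lilrb4a rose 10.4-fold, Pvr 2.55-fold, Cd47 1.91-fold and Lgals9 1.58-fold by the ratio of mean RPKM. The receptors Lag3, Sirpa and Havcr2 fell, being 4.32-fold, 3.04-fold and 1.79-fold lower. Of the 9 tested genes 5 rose and 3 fell, while 82.9% of all 9727 genes tested passed (34.6% higher and 48.2% lower). The share of the checkpoint genes that passed was therefore close to that of all genes, and so was the share without overlap between the groups, 8 of 9 against 85.4%. Their median log2 difference was 0.66, against -0.14 over all genes tested.

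Cd274 had 4.06, 3.52 and 2.97 RPKM in the naive samples and 71.7, 119 and 103 RPKM in the vehicle samples, in the order of their replicate numbers. Each vehicle sample lay far above each naive sample, and the limma difference was 4.43 ± 0.18 (SE) on the log2 scale, adjusted p = 1.54e-07. Among the other ligands, Lgals9 had 121, 113 and 111 RPKM in naive and 177, 186 and 183 RPKM in vehicle samples (0.66 ± 0.06, adjusted p = 1.04e-05). For Cd47 the values were 25.6, 23.3 and 23.2 RPKM in naive and 45.0, 46.9 and 45.6 RPKM in vehicle samples (0.91 ± 0.06, adjusted p = 1.68e-06). Neither gene had overlapping groups. Pvr rose as well, with 2.06 to 2.44 RPKM in naive and 5.52 to 6.15 RPKM in vehicle samples (1.05 ± 0.07, adjusted p = 2.37e-06).

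Among the receptors, Sirpa, the phagocyte receptor of CD47, had 868, 859 and 829 RPKM in naive and 320.0, 265 and 254 RPKM in vehicle samples. It was the most abundant of the 10 genes in both groups, and all naive samples were higher than all vehicle samples (-1.61 ± 0.09, adjusted p = 9.35e-07). Lag3, a receptor of MHC class II, had 324, 325 and 316 RPKM in naive and 96.2, 62.9 and 64.1 RPKM in vehicle samples. It was lower in every tumor sample (-2.13 ± 0.15, adjusted p = 3.26e-06). Havcr2, which encodes TIM-3, had 110.4, 110.4 and 109.9 RPKM in naive and 66.3, 58.7 and 59.7 RPKM in vehicle samples (-0.83 ± 0.06, adjusted p = 3.93e-06), again without overlap. Lilrb4a, an inhibitory immunoglobulin-like receptor of myeloid cells, was at 0.222 to 0.420 RPKM in naive and 2.75 to 3.34 RPKM in vehicle samples (1.66 ± 0.09, adjusted p = 6.60e-07). Pdcd1, which encodes PD-1, had 1.93, 1.49 and 1.44 RPKM in naive and 1.62, 1.87 and 3.00 RPKM in vehicle samples, and these ranges overlapped.

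The microglia and macrophage markers moved with these differences. Of the microglia markers, 10 of 10 tested fell and 0 rose, and of the monocyte and macrophage markers 9 of 10 tested rose. The part of this shift in the differences of the checkpoint genes was not tested. Ido1 had 0.0299, 0 and 0 RPKM in naive and 0.111, 0.352 and 0.425 RPKM in vehicle samples, levels too low for the main test.

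**Figure D1:**
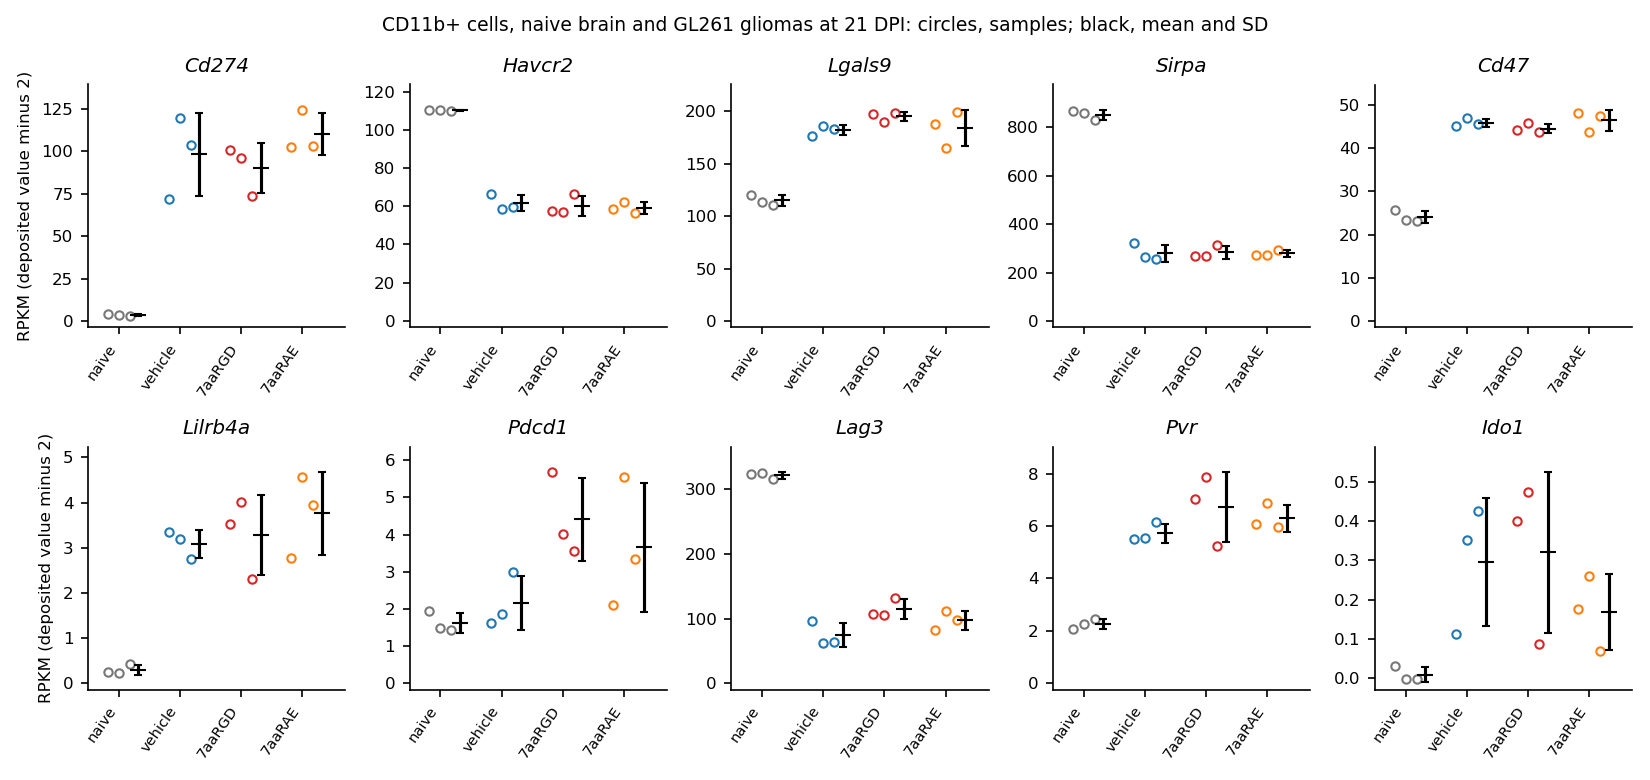
RPKM of each of the 10 genes in naive C57BL/6 samples and in GL261 samples of vehicle, 7aaRGD and 7aaRAE at 21 DPI, 1 panel for each gene with its own linear axis. Points are samples and bars are the mean ± SD of 3 samples; Cd274 stands at 2.97 to 4.06 RPKM in naive samples and at 71.7 to 124 RPKM in the tumor samples, and Sirpa, Lag3 and Havcr2 are lower in each tumor sample than in each naive one.

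The genes around these checkpoints were taken from 6 lists, whose counts stand beside the 82.9% of all genes that passed in this comparison. Of 35 other inhibitory checkpoint genes, 12 rose and 8 fell of the 22 tested between vehicle and naive. That list was drawn broadly and also holds genes of costimulatory molecules, among them Cd80 and Cd86. The largest differences were in Pdcd1lg2, the second PD-1 ligand (5.45 ± 0.52, adjusted p = 2.02e-05), Pirb, an inhibitory receptor related to Lilrb4a (3.84 ± 0.09, adjusted p = 1.16e-08), Cd244a (3.06 ± 0.08, adjusted p = 2.41e-08) and Pilra (2.77 ± 0.10, adjusted p = 7.87e-08). Of 12 genes of the interferon-gamma pathway, 7 rose and 3 fell of the 11 tested, led by the chemokine Cxcl9 (7.52 ± 0.22, adjusted p = 3.37e-08), the signalling inhibitor Socs1 (4.32 ± 0.19, adjusted p = 2.25e-07) and Ciita, the master regulator of MHC class II (4.27 ± 0.11, adjusted p = 2.48e-08).

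Of 9 tryptophan and amino acid catabolic regulators, 5 rose and 0 fell of the 5 tested. Downstream of Ido1, Kmo (3.04 ± 0.09, adjusted p = 4.31e-08) and Kynu (2.32 ± 0.21, adjusted p = 1.28e-05) encode enzymes of the kynurenine pathway, and Ahr (2.89 ± 0.23, adjusted p = 7.60e-06) encodes a receptor of kynurenine. Of 6 galectins beside Lgals9, 3 rose and 0 fell of the 3 tested, with Lgals3 (5.89 ± 0.08, adjusted p = 2.90e-09) and Lgals1 (4.88 ± 0.15, adjusted p = 4.47e-08) ahead. Of 9 counterparts of CD47 in phagocytosis, 5 rose and 4 fell of the 9 tested, among them Axl, a receptor for apoptotic cells (3.82 ± 0.06, adjusted p = 4.33e-09), and Sirpb1b, an activating relative of Sirpa (3.45 ± 0.10, adjusted p = 3.58e-08). Of 8 phosphatases and adaptors of inhibitory receptors, 4 rose and 3 fell of the 8 tested. The medians were 0.62 for the other checkpoint genes, 2.59 for the interferon-gamma genes, 2.32 for the catabolic genes, 4.88 for the galectins, 0.53 for the phagocytosis genes and 0.17 for the phosphatases.

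The peptide comparisons at 21 DPI asked whether 7aaRGD or 7aaRAE changed the genes in GL261 tumors. With 7aaRGD, no tested checkpoint gene passed the test, while 0.148% of 9440 genes did, or 14 genes. That number was 0 or 1 when any sample of these groups other than vehicle replicate 3 was left out and 120 without vehicle replicate 3, and the count of checkpoint genes was 0 each time. At an unadjusted p under 0.05 there were 2 of the 9, Lag3 and Pdcd1, against 13.5% of all genes. The vehicle and 7aaRGD samples did not overlap in 3 of the 9, Lag3, Pdcd1 and Lgals9, against 17.6% of all genes.

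Lag3 had 96.2, 62.9 and 64.1 RPKM in vehicle, 106, 106 and 133 RPKM in 7aaRGD and 82.7, 111 and 98.4 RPKM in 7aaRAE samples. Each 7aaRGD value was above each vehicle value, but the limma difference missed the threshold (0.64 ± 0.17 (SE) on the log2 scale, adjusted p = 0.196). For 7aaRAE the difference was 0.40 ± 0.17, adjusted p = 0.718, with overlapping samples. Pdcd1 had 1.62, 1.87 and 3.00 RPKM in vehicle, 5.68, 4.01 and 3.55 RPKM in 7aaRGD and 2.11, 5.54 and 3.34 RPKM in 7aaRAE samples. The 7aaRGD samples were again the higher ones (0.78 ± 0.26, adjusted p = 0.27), and 1 of the 7aaRAE samples reached their range.

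Markers of lymphocytes, on which PD-1 and LAG-3 are also found, reached higher sums in the 7aaRGD samples, with ranges that met those of vehicle. The 16 T cell markers summed to 2.78 to 11.7 RPKM in vehicle, 11.6 to 25.6 RPKM in 7aaRGD and 5.15 to 14.3 RPKM in 7aaRAE samples, and the 9 NK cell markers to 14.3 to 34.0, 31.3 to 67.6 and 17.8 to 37.2 RPKM. Cd3e, 1 of these T cell markers, was at 0.164 ± 0.202 (SD, n = 3) RPKM in vehicle and 0.638 ± 0.287 (SD, n = 3) RPKM in 7aaRGD samples. Of the T cell markers, 3 had a mean of at least 1 RPKM in vehicle and 6 in 7aaRGD samples, and of the 3 T cell and 6 NK cell markers tested none passed the test. The 10 microglia markers summed to 2182 to 2900.5 RPKM in 7aaRGD, above the vehicle samples, as did 9 conventional dendritic cell markers (255 to 273 RPKM, against 204 to 233 RPKM). The sums were also higher in every 7aaRGD sample for plasmacytoid dendritic cell markers (426 to 481 against 344 to 404 RPKM) and oligodendrocyte markers (19.5 to 24.5 against 13.8 to 18.1 RPKM). That of monocyte and macrophage markers was lower (1753 to 2011 against 2047 to 3799 RPKM). Of these 10 markers, however, 5 had a positive and 5 a negative log2 difference (median 0.05), and none passed the test. In 7aaRAE samples the sums were 1877 to 2399 RPKM for microglia, 197 to 302 RPKM for conventional and 352 to 491 RPKM for plasmacytoid dendritic cell markers. They were 17.3 to 19.1 RPKM for oligodendrocyte and 1876 to 2130 RPKM for monocyte and macrophage markers. Each of these sums had a mean between those of vehicle and 7aaRGD. The part of all these cells in the values of Pdcd1, Lag3 and Lgals9 was not tested.

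Lgals9 had 177, 186 and 183 RPKM in vehicle and 197, 190.2 and 198 RPKM in 7aaRGD samples, a small gap without overlap (0.10 ± 0.07, adjusted p = 0.589). Cd274 had 101, 95.8 and 73.4 RPKM in 7aaRGD and 102, 124 and 103 RPKM in 7aaRAE samples, with means on either side of the vehicle mean of 98.2 ± 24.3 (SD, n = 3) RPKM. Over the 3 tumor groups at 21 DPI, Havcr2 stayed within 56.5 to 66.4 RPKM, Sirpa within 254 to 320.0 RPKM, Cd47 within 43.6 to 48.1 RPKM, Pvr within 5.24 to 7.87 RPKM and Lilrb4a within 2.31 to 4.56 RPKM. With 7aaRAE none of the 9 passed the test against vehicle, nor did any of 9440 genes (0%). At an unadjusted p under 0.05 there was 1 checkpoint gene, Lag3, against 6.36% of all genes, and 0 of the 9 had groups without overlap, against 12.6%. Both peptide comparisons used the same vehicle samples.

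Set directly against each other, 7aaRGD and 7aaRAE differ in the motif that integrins bind. None of the 9 genes passed the test at 21 DPI, as no gene did (0%), and none had an unadjusted p under 0.05, against 5.51% of all genes. Cd274 was lower in each 7aaRGD than in each 7aaRAE sample, with a log2 difference of -0.29 (95% interval -0.71 to 0.12) and an adjusted p of 0.992. Groups without overlap were found for 11.4% of all genes and for 1 of the 9. The intervals of the receptors were 0.26 (95% interval -0.33 to 0.85) for Pdcd1, 0.24 (95% interval -0.15 to 0.63) for Lag3, 0.03 (95% interval -0.15 to 0.21) for Havcr2 and 0.02 (95% interval -0.21 to 0.24) for Sirpa. Those of the other ligands were 0.09 (95% interval -0.08 to 0.26) for Lgals9, -0.06 (95% interval -0.19 to 0.07) for Cd47 and 0.07 (95% interval -0.20 to 0.33) for Pvr. For Pdcd1 and Lag3 these intervals leave room for a rise of over 0.5 on the log2 scale. For Cd274, and for Lilrb4a with a lower bound of -0.54, they leave room for a fall of over 0.5. For Sirpa, Havcr2, Lgals9, Cd47 and Pvr both bounds lay within 0.5 of 0.

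At 28 DPI the question was how 7aaRGD, anti-PD-1 and their combination changed the genes in GL261 tumors. Cd274 and Pdcd1, the ligand and receptor of the checkpoint the antibody blocks, rose with anti-PD-1 and with the combination. Havcr2 and Lgals9, which encode TIM-3 and its ligand galectin-9, fell with the combination. Relative to vehicle, Cd274 was 1.78-fold and 2.62-fold higher with anti-PD-1 and with the combination by the ratio of mean RPKM, and Pdcd1 2.53-fold and 3.02-fold. With 7aaRGD alone no gene of the 9 passed the test. The 3 treatments were compared with the same 4 vehicle samples.

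With 7aaRGD alone, none of the 9 had an unadjusted p under 0.05 or groups without overlap, while 0.647% of 9737 genes passed the test, 14.6% had such a p and 8.02% did not overlap. With anti-PD-1, 2 of the 9 passed, both higher, against 23.1% of all genes (10.8% higher and 12.2% lower). With the combination, 4 rose and 2 fell of the 9, against 43.3% of all genes (17.5% higher and 25.8% lower). The share with anti-PD-1 was near that of all genes. Groups did not overlap with vehicle in 3 of the 9 with anti-PD-1 and in 5 with the combination, against 32.5% and 48.8% of all genes. The medians of the 9 genes were 0.02 with anti-PD-1 and 0.16 with the combination, against -0.01 and -0.05 over all genes.

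Cd274 had 56.0, 33.3, 33.4 and 46.5 RPKM in vehicle and 34.2, 43.8, 29.2 and 27.9 RPKM in 7aaRGD samples. With anti-PD-1 it had 59.6, 89.4 and 76.5 RPKM and with the combination 138, 80.5 and 114 RPKM. Every sample that had received the antibody was above every sample that had not, and the combination and anti-PD-1 alone overlapped. The limma differences from vehicle were 0.83 ± 0.22 (SE) on the log2 scale, adjusted p = 0.0182 with anti-PD-1 and 1.37 ± 0.22, adjusted p = 3.52e-04 with the combination. The first lost its call without vehicle replicate 2 (adjusted p = 0.0513) or without anti-PD-1 replicate 2 (adjusted p = 0.0871).

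Pdcd1 had 0.750, 2.01, 1.28 and 0.797 RPKM in vehicle, 0.715, 1.30, 0.945 and 1.10 RPKM in 7aaRGD, 2.69, 3.35 and 3.12 RPKM in anti-PD-1 and 4.69, 3.67 and 2.58 RPKM in combination samples. As with Cd274, the samples with the antibody were the higher ones without exception, though all levels were low. The limma differences from vehicle were 0.91 ± 0.19, adjusted p = 0.00431 with anti-PD-1 and 1.08 ± 0.19, adjusted p = 5.18e-04 with the combination. The transcript was measured, not the protein that the antibody binds.

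Lymphocyte markers also reached higher sums in samples with the antibody. The T cell markers summed to 2.46 to 4.15 RPKM in vehicle, 1.10 to 3.60 RPKM in 7aaRGD, 2.61 to 12.5 RPKM in anti-PD-1 and 8.44 to 14.2 RPKM in combination samples, and none of the 16 reached the mean level needed for a test, although 5 had a mean of at least 1 RPKM in combination samples. The NK cell markers summed to 3.99 to 13.3, 2.76 to 12.8, 5.31 to 74.5 and 31.4 to 90.7 RPKM in the same order, and 6 of 7 tested rose with the combination. Cd3e, 1 of these T cell markers, was at 0.0448 ± 0.0420 (SD, n = 4) RPKM in vehicle and 0.265 ± 0.128 (SD, n = 3) RPKM in combination samples. The part of these cells in the levels of Pdcd1, Lag3 and Cd274 was not tested.

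**Figure D2:**
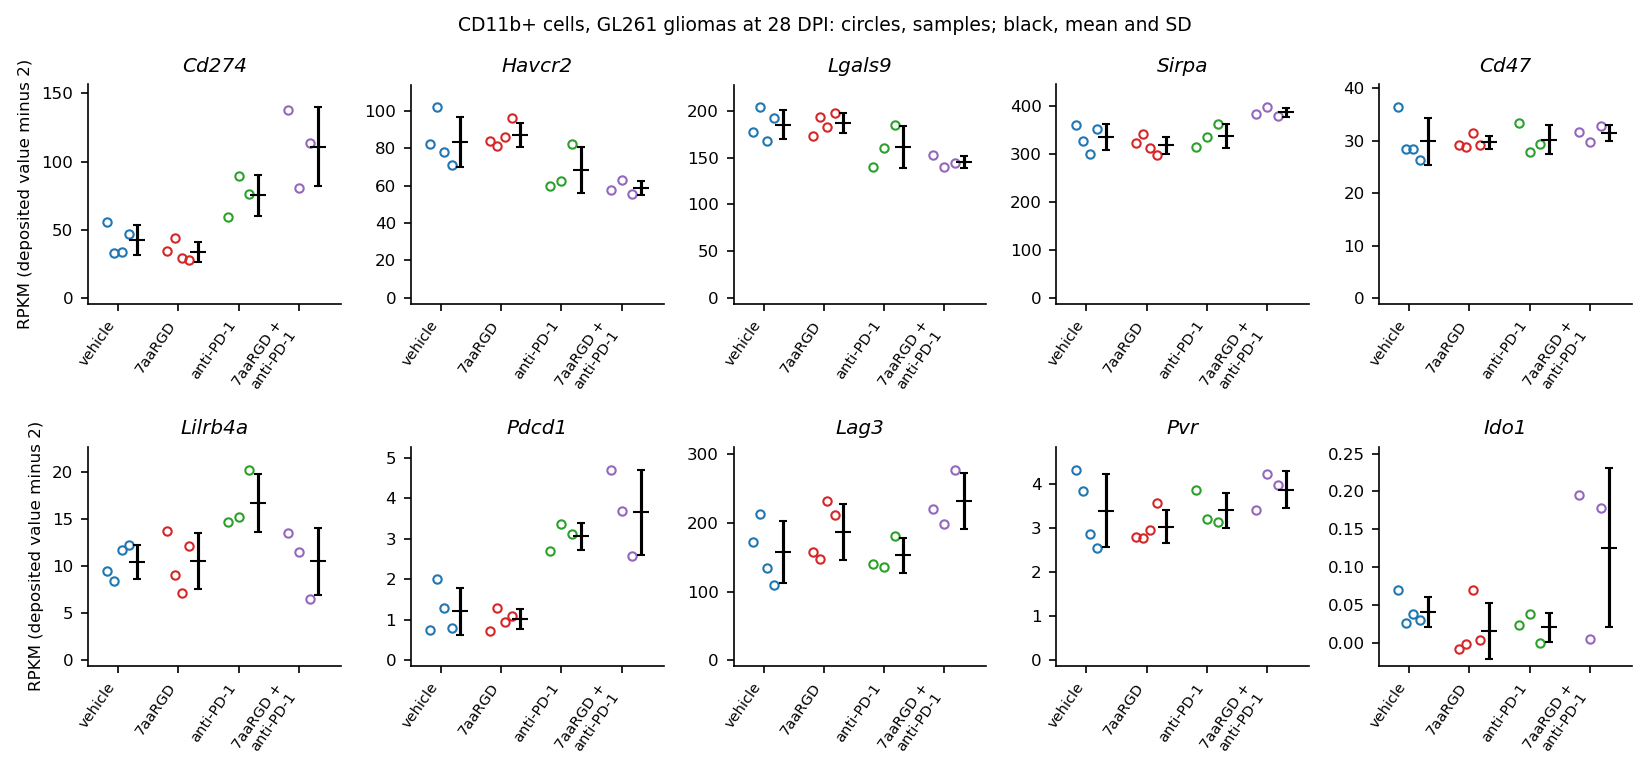
RPKM of each of the 10 genes in GL261 samples at 28 DPI under vehicle, 7aaRGD, anti-PD-1 or the combination, 1 panel for each gene with its own linear axis. Points are samples and bars are the mean ± SD of 4, 4, 3 and 3 samples; Cd274 is at 27.9 to 56.0 RPKM without the antibody and at 59.6 to 138 RPKM with it.

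Havcr2 had 82.4, 102, 77.9 and 71.0 RPKM in vehicle, 84.1, 81.3, 85.9 and 96.1 RPKM in 7aaRGD, 59.9, 62.3 and 82.2 RPKM in anti-PD-1 and 57.5, 63.1 and 55.6 RPKM in combination samples. All combination samples were below all vehicle samples (-0.49 ± 0.12, adjusted p = 0.00685), whereas 1 anti-PD-1 sample lay within the vehicle range (-0.29 ± 0.12, adjusted p = 0.113). Lgals9 had 177, 204, 168 and 192 RPKM in vehicle, 173, 193, 183 and 198 RPKM in 7aaRGD, 139, 160.2 and 185 RPKM in anti-PD-1 and 152, 139.7 and 144 RPKM in combination samples. It showed the same order, with the combination below every vehicle sample (-0.34 ± 0.09, adjusted p = 0.00952) and anti-PD-1 overlapping vehicle (-0.20 ± 0.09, adjusted p = 0.137). Among the other myeloid markers, those of monocytes and macrophages summed to 511 to 1023 RPKM in vehicle, 730.2 to 1676 RPKM in anti-PD-1 and 763 to 1626 RPKM in combination samples. Of these 10 markers, 5 rose and 0 fell with anti-PD-1, and 5 rose and 1 fell with the combination. Of the conventional dendritic cell markers, 2 rose and 1 fell of the 5 tested with the combination (median 0.33), while their sum, carried by Itgax, which fell (-0.61 ± 0.23, adjusted p = 0.0464), was 199 to 248 RPKM in vehicle and 131 to 192 RPKM in combination samples. Of the plasmacytoid dendritic cell markers, 1 rose and 0 fell of the 3 tested (median -0.06), while their sum, carried by Bst2, which rose (0.48 ± 0.06, adjusted p = 7.00e-05), was 231 to 252 RPKM in vehicle and 310.0 to 351 RPKM in combination samples. Their part in the differences of Havcr2, Lgals9 and Cd274 was not tested. Without anti-PD-1 replicate 3, the highest of its group in both genes, both passed limma's test of anti-PD-1 against vehicle, with adjusted p = 0.0256 for Havcr2 and 0.036 for Lgals9. With any other sample left out neither passed, and the adjusted p reached 0.336 for Havcr2 and 0.48 for Lgals9.

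Sirpa had 359.9, 327, 299.6 and 352 RPKM in vehicle, 322, 340.4, 313 and 298 RPKM in 7aaRGD, 313, 336 and 362 RPKM in anti-PD-1 and 383, 397 and 379 RPKM in combination samples. The combination samples were above all others, by a small amount (0.21 ± 0.08, adjusted p = 0.0391 against vehicle). Lag3 had 173, 213, 135 and 109 RPKM in vehicle, 157, 148, 232 and 212 RPKM in 7aaRGD, 141, 136 and 181 RPKM in anti-PD-1 and 219.6, 198 and 278 RPKM in combination samples. It passed against vehicle (0.59 ± 0.22, adjusted p = 0.0434) although vehicle replicate 2 lay within the combination range. Both calls were near the threshold: with the 2 groups alone in the fit the adjusted p was 0.0554 for Sirpa and 0.0506 for Lag3. The calls were also lost when 1 sample was left out, in 5 of 7 cases for Sirpa (adjusted p up to 0.111) and in 4 of 7 for Lag3 (up to 0.17). The cases were, for Sirpa, vehicle replicates 2 and 3 and combination replicates 1, 2 and 3, and for Lag3, vehicle replicates 3 and 4 and combination replicates 1 and 3. The microglia markers summed to 1659.9 to 2364 RPKM in vehicle and 2549 to 2725 RPKM in combination samples, and 6 of 10 rose. Their part in the values of Sirpa and Lag3 was not tested.

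Lilrb4a had 9.50, 8.38, 11.6 and 12.2 RPKM in vehicle, 13.7, 9.07, 7.07 and 12.1 RPKM in 7aaRGD, 14.7, 15.1 and 20.2 RPKM in anti-PD-1 and 13.5, 11.5 and 6.53 RPKM in combination samples. Anti-PD-1 samples were above all vehicle samples, with a difference that missed the threshold (0.63 ± 0.23, adjusted p = 0.0688) but passed it with the 2 groups alone in the fit (adjusted p = 0.0211). With any 1 sample left out it did not pass limma's test, and the adjusted p reached 0.209. The combination samples spread from below the lowest to above the highest vehicle sample. Cd47 stayed within 26.3 to 36.4 RPKM and Pvr within 2.54 to 4.32 RPKM, and neither had an unadjusted p under 0.05 against vehicle under any treatment. Ido1, the enzyme that breaks down tryptophan, had 0.195, 0.00500 and 0.178 RPKM in combination samples and at most 0.0702 RPKM in the other samples of 28 DPI, below the level required for the main test.

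Adding 7aaRGD to anti-PD-1 was tested by setting the combination against the antibody alone. None of the 9 passed the test, against 0.0411% of all genes, while 4 of the 9 had an unadjusted p under 0.05, against 15.0% of all genes. These were Cd274 (0.54 ± 0.24, adjusted p = 0.311), Sirpa (0.20 ± 0.08, adjusted p = 0.276), Lag3 (0.60 ± 0.23, adjusted p = 0.251) and Lilrb4a (-0.66 ± 0.25, adjusted p = 0.239). Sirpa and Lag3 were higher in every combination sample and Lilrb4a was lower, and groups did not overlap in 21.5% of all genes. Havcr2 and Lgals9 had an unadjusted p above 0.05, their mean RPKM being 68.1 ± 12.3 (SD, n = 3) and 161 ± 22.6 (SD, n = 3) with anti-PD-1 and 58.7 ± 3.91 (SD, n = 3) and 145 ± 6.44 (SD, n = 3) with the combination.

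Adding anti-PD-1 to 7aaRGD was tested in the same way. With the combination set against 7aaRGD alone, 5 of the 9 passed, against 36.6% of all genes. Cd274 (1.67 ± 0.22, adjusted p = 1.55e-04), Pdcd1 (1.19 ± 0.19, adjusted p = 4.41e-04) and Sirpa (0.28 ± 0.08, adjusted p = 0.012) rose, and Havcr2 (-0.56 ± 0.12, adjusted p = 0.00411) and Lgals9 (-0.36 ± 0.09, adjusted p = 0.00968) fell. The interaction, which is the log2 difference left in the combination once those of 7aaRGD alone and anti-PD-1 alone are subtracted, passed for no gene (0%). For the checkpoint genes, 2 of the 9 had an unadjusted p under 0.05, Cd274 (0.84 ± 0.32, adjusted p = 0.588) and Sirpa (0.27 ± 0.11, adjusted p = 0.593), against 8.15% of all genes.

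**Figure D3:**
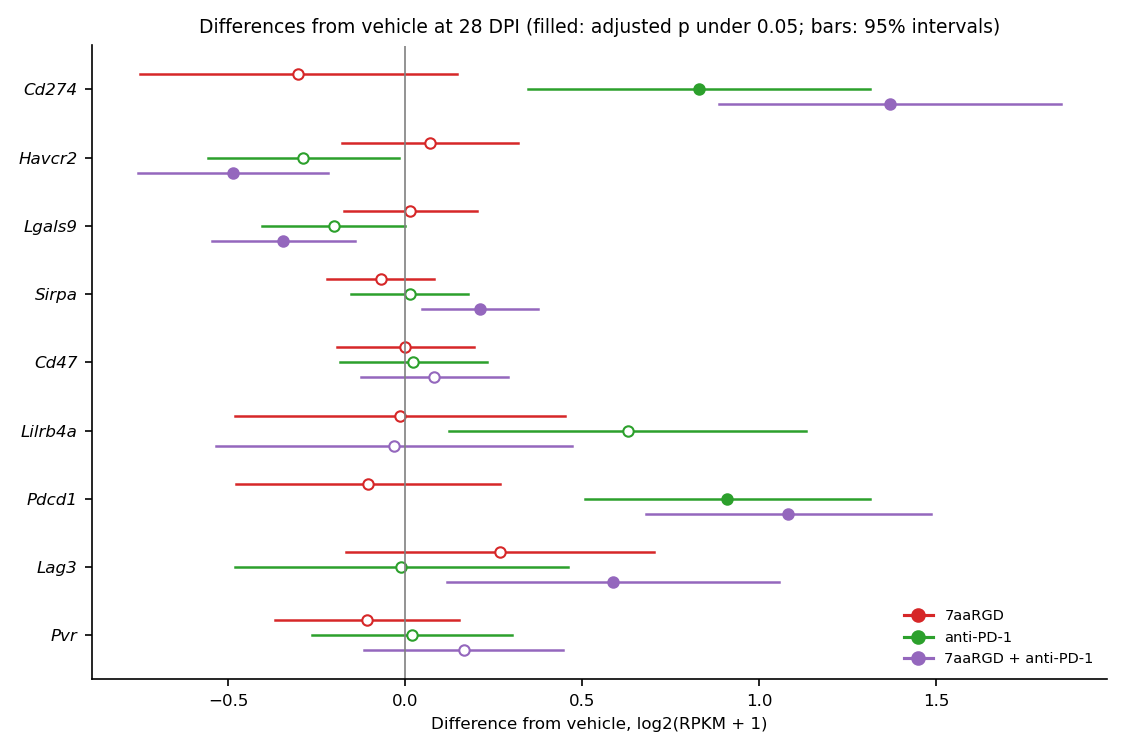
Log2 differences on the log2(RPKM + 1) scale with 95% intervals for the 9 tested genes at 28 DPI, for each treatment against vehicle. Filled points pass limma's adjusted p under 0.05: Cd274 at 1.37 and Pdcd1 at 1.08 are the highest, and Havcr2 at -0.49 and Lgals9 at -0.34 the lowest, for the combination against vehicle.

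The related genes were again taken from the lists, whose counts stand beside a share of 23.1% of all genes with anti-PD-1 and 43.3% with the combination. Of the 35 other inhibitory checkpoint genes, 6 rose and 0 fell of the 20 tested with anti-PD-1 (median 0.18, against -0.01 over all genes tested) and 7 rose and 4 fell of the 20 tested with the combination (median 0.22, against -0.05 over all genes tested). Pdcd1lg2, the second ligand of PD-1, rose with both (1.73 ± 0.55, adjusted p = 0.0377, and 2.37 ± 0.55, adjusted p = 0.00383), as did the inhibitory lectins Clec12a (1.25 ± 0.18, adjusted p = 5.80e-04, and 1.60 ± 0.18, adjusted p = 2.44e-05) and Siglecg (1.02 ± 0.26, adjusted p = 0.0144, and 1.31 ± 0.26, adjusted p = 0.00153). Cd276, which encodes B7-H3, fell with the combination (-1.17 ± 0.34, adjusted p = 0.0131).

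Of the 12 interferon-gamma pathway genes, 7 rose and 1 fell of the 11 tested with anti-PD-1 (median 0.60, against -0.01 over all genes tested) and 8 rose and 1 fell of the 11 tested with the combination (median 0.51, against -0.05 over all genes tested). The transcription factor Irf1 (1.11 ± 0.20, adjusted p = 0.00227, and 1.39 ± 0.20, adjusted p = 1.51e-04) and the feedback inhibitor Socs1 (1.08 ± 0.28, adjusted p = 0.0136, and 1.35 ± 0.28, adjusted p = 0.00163) rose with both. Ifngr1, a receptor subunit, fell with anti-PD-1 (-0.66 ± 0.13, adjusted p = 0.00314). Of the 9 catabolic regulators, 1 rose and 0 fell of the 5 tested with anti-PD-1 (median 0.49, against -0.01 over all genes tested) and 3 rose and 1 fell of the 5 tested with the combination (median 0.68, against -0.05 over all genes tested). Il4i1, a secreted amino acid oxidase, rose with both (0.80 ± 0.15, adjusted p = 0.00288, and 1.33 ± 0.15, adjusted p = 2.58e-05), Kmo rose with the combination (1.32 ± 0.26, adjusted p = 0.0013) and Ahr fell (-0.98 ± 0.22, adjusted p = 0.00316).

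Of the 9 phagocytosis counterparts, 3 rose and 0 fell of the 9 tested with anti-PD-1 (median 0.23, against -0.01 over all genes tested) and 5 rose and 1 fell of the 9 tested with the combination (median 0.38, against -0.05 over all genes tested). Calr, whose product is a prophagocytic signal when on the cell surface, rose with both (0.63 ± 0.13, adjusted p = 0.00448, and 0.71 ± 0.13, adjusted p = 8.44e-04), and its receptor Lrp1 fell with the combination (-0.31 ± 0.10, adjusted p = 0.0222). Of the 8 phosphatases and adaptors, 1 rose and 0 fell of the 8 tested with anti-PD-1 (median 0.02) and 1 rose and 2 fell of the 8 tested with the combination (median 0.04). Ptpn6, the phosphatase SHP-1 recruited by many inhibitory receptors, rose with both (0.37 ± 0.12, adjusted p = 0.0425, and 0.42 ± 0.12, adjusted p = 0.014), while Inpp5d fell with the combination (-0.23 ± 0.07, adjusted p = 0.0137). Of the 6 galectins, 3 were tested and Lgals8 rose with both (0.33 ± 0.10, adjusted p = 0.0239, and 0.37 ± 0.10, adjusted p = 0.0069), opposite in sign to Lgals9. With 7aaRGD alone no gene of these 6 lists passed the test.

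Genes whose pattern over the 14 samples of 28 DPI was most like each checkpoint gene were ranked by Pearson's r of log2(RPKM + 1). The samples share 4 treatment groups, so that these values describe the table and carry no test. For Cd274 the highest were Cemip2 (r = 0.950), Prr5l (r = 0.946), and for Pdcd1 Lonp2 (r = 0.961), Pecam1 (r = 0.942), Plcd1 (r = 0.939). Havcr2 was nearest to Vars (r = 0.943), Sh2b3 (r = 0.937), Adrb1 (r = 0.931), and Lgals9 to Tbc1d16 (r = 0.958), Dbt (r = 0.955), Etv4 (r = 0.942). For Lag3 they were Clstn1 (r = 0.894), Cd86 (r = 0.883), Armcx2 (r = 0.859), and for Sirpa Orai3 (r = 0.885), Tbc1d8 (r = 0.852), Tlr8 (r = 0.840). Those of Lilrb4a were Leng8 (r = 0.885), Coq4 (r = 0.870), Ccdc137 (r = 0.848), those of Cd47 Atxn7 (r = 0.835), Dpf2 (r = 0.820), Spty2d1 (r = 0.813) and those of Pvr Tmx4 (r = 0.807), Nr4a3 (r = 0.807), Rrad (r = 0.794). Cd86, named beside Lag3, encodes a costimulatory ligand.

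In U87-MG tumors of nude mice, the levels of the genes stood in another order. Cd274 had 8.38, 6.01 and 7.48 RPKM in vehicle samples, against 71.7 to 119 RPKM under vehicle in the GL261 table of 21 DPI, and Pdcd1 had 20.2, 30.8 and 25.5 RPKM, against 1.62 to 3.00 RPKM. Thus Pdcd1 stood above Cd274 in U87-MG vehicle samples and below it in the GL261 ones. Sirpa (475 to 578 RPKM), Lag3 (229 to 299 RPKM) and Havcr2 (116 to 129 RPKM) had numerically higher ranges than under vehicle in GL261, and Cd47 (12.5 to 17.1 RPKM) a lower one. The microglia markers summed to 9477 to 12060.2 RPKM in U87-MG and 1438 to 2107 RPKM in GL261 vehicle samples, and the monocyte and macrophage markers to 283 to 380.0 and 2047 to 3799 RPKM. Their part in these levels was not tested. Tumor line, mouse strain and normalization differ together between these tables and cannot be told apart, and the differences were not tested.

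The T cell markers summed to 0.540 to 2.53 RPKM over the 9 samples of this table, and none of the 16 had a mean of 1 RPKM in any of its groups, with Cd3e at no more than 0.0163 RPKM in any of them. Pdcd1 reached 38.4 RPKM, the highest value of this gene in the 35 samples. The NK cell markers summed to 8.46 to 23.5 RPKM in vehicle, 1.70 to 7.98 RPKM in 7aaRGD and 0.362 to 2.36 RPKM in 7aaRAE samples.

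The peptide comparisons in U87-MG tumors asked the same question as in GL261. None of the 9 tested genes passed the test with 7aaRGD or with 7aaRAE, while 0% and 0.0103% of 9664 genes did. At an unadjusted p under 0.05 there were 0 with 7aaRGD and 1 with 7aaRAE, Havcr2, against 3.78% and 7.72% of all genes.

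Havcr2 had 129, 116 and 119.8 RPKM in vehicle, 122, 146 and 137 RPKM in 7aaRGD and 159, 172 and 151 RPKM in 7aaRAE samples. The 7aaRAE samples were the highest, with a difference from vehicle of 0.40 ± 0.09, adjusted p = 0.328, and groups without overlap made up 16.5% of all genes. Lag3 had 259.6, 299 and 229 RPKM in vehicle, 213, 168 and 213 RPKM in 7aaRGD and 279, 153 and 203 RPKM in 7aaRAE samples. Here the 7aaRGD samples were below all vehicle samples (-0.40 ± 0.21, adjusted p = 0.941), the opposite order to that in GL261 tumors at 21 DPI, and 10.8% of all genes did not overlap. Pdcd1 was spread widely within groups, with 38.4, 9.21 and 19.0 RPKM in 7aaRGD and 22.8, 14.1 and 27.1 RPKM in 7aaRAE samples.

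**Figure D4:**
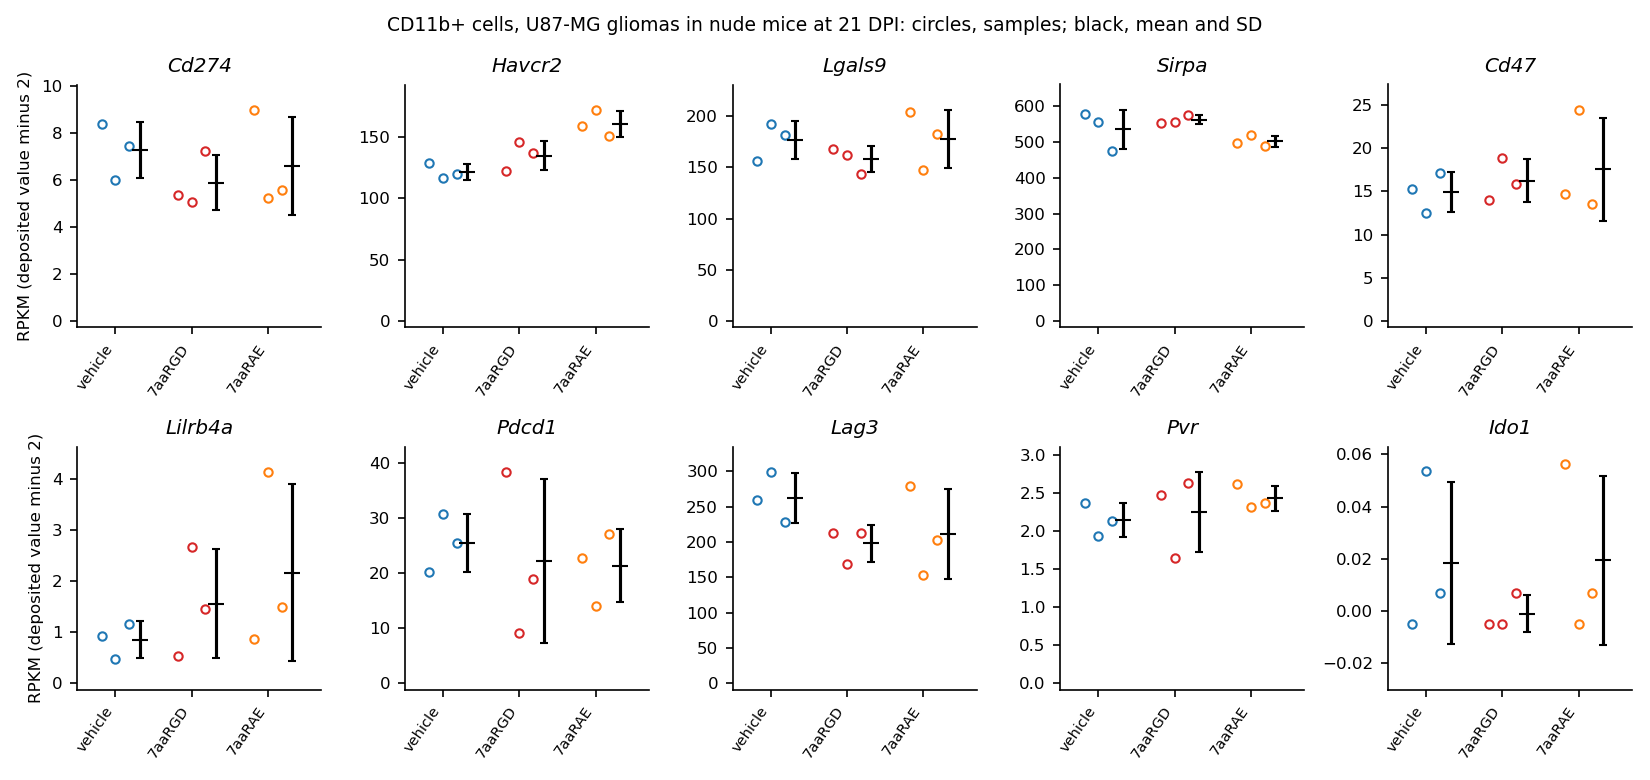
RPKM of each of the 10 genes in CD11b+ cells of U87-MG tumors in nude mice under vehicle, 7aaRGD and 7aaRAE at 21 DPI, 1 panel for each gene with its own linear axis. Points are samples and bars are the mean ± SD of 3 samples; Havcr2 is at 151 to 172 RPKM in 7aaRAE samples and at 116 to 146 RPKM in the others, and Pdcd1 spreads from 9.21 to 38.4 RPKM within the 7aaRGD group.

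Cd274 stayed within 5.07 to 9.002 RPKM over the 3 U87-MG groups, Lgals9 within 144 to 204 RPKM, Sirpa within 475 to 578 RPKM and Cd47 within 12.5 to 24.5 RPKM. Pvr had 1.65 to 2.63 RPKM and Lilrb4a 0.469 to 4.14 RPKM, the latter overlapping the 2.31 to 4.56 RPKM of GL261 tumors at 21 DPI. Ido1 was at no more than 0.0562 RPKM.

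Between 7aaRGD and 7aaRAE no gene passed the test in U87-MG tumors (0%), and 1 of the 9 had an unadjusted p under 0.05, against 3.37% of all genes. That was Havcr2, with a log2 difference of -0.25 (95% interval -0.47 to -0.04) and an adjusted p of 1 over all genes tested. Sirpa was higher in each 7aaRGD than in each 7aaRAE sample, by 0.16 (95% interval -0.05 to 0.38), and 6.46% of all genes did not overlap. The intervals were -0.12 (95% interval -0.57 to 0.32) for Cd274, -0.06 (95% interval -0.53 to 0.41) for Lag3, -0.11 (95% interval -1.08 to 0.87) for Pdcd1, -0.16 (95% interval -0.46 to 0.15) for Lgals9, -0.07 (95% interval -0.55 to 0.40) for Cd47, -0.09 (95% interval -0.38 to 0.19) for Pvr and -0.26 (95% interval -1.16 to 0.64) for Lilrb4a. In the GL261 table the interval of Lilrb4a was -0.16 (95% interval -0.54 to 0.23). Of the 18 differences between the peptides in the 2 tumor models, none passed the test.

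**Figure D5:**
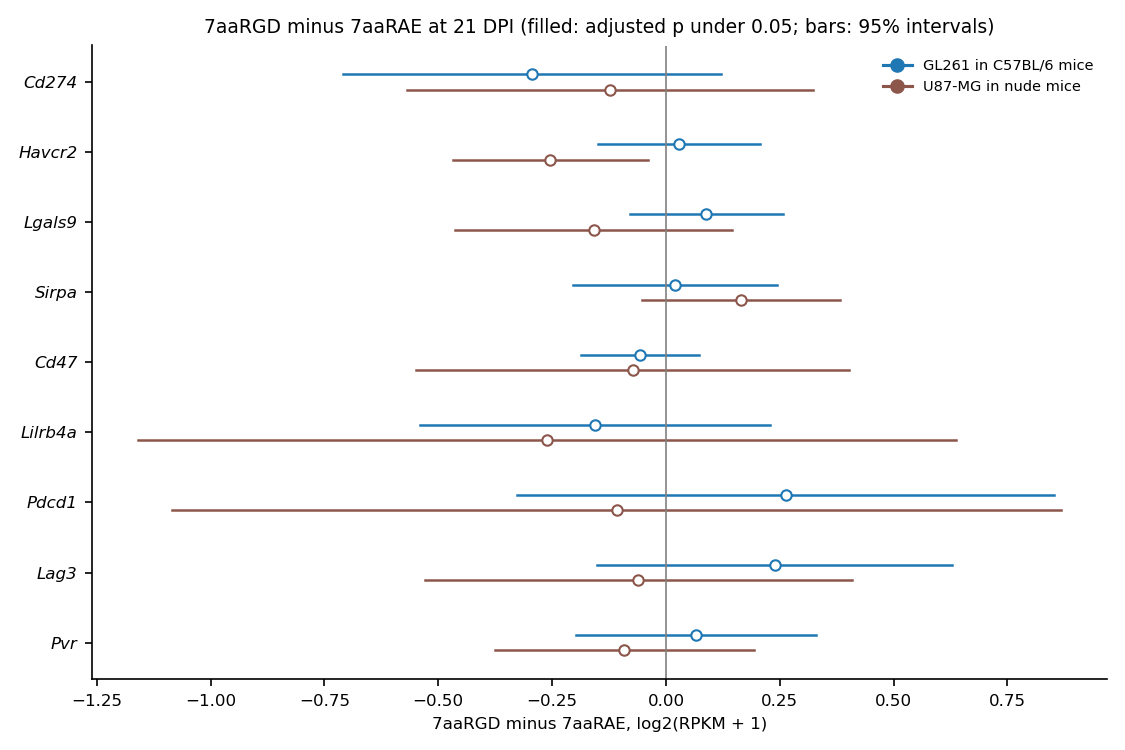
Log2 differences on the log2(RPKM + 1) scale with 95% intervals for the 9 tested genes, for 7aaRGD against 7aaRAE in GL261 and U87-MG tumors at 21 DPI. None passes limma's adjusted p under 0.05, and Lag3 stands at 0.24 in GL261 and at -0.06 in U87-MG.

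No gene of the 6 lists passed the test with either peptide in GL261 tumors at 21 DPI or in U87-MG tumors. For the other inhibitory checkpoint genes the median difference from vehicle was 0.08 with 7aaRGD and 0.04 with 7aaRAE in GL261, and -0.03 and -0.13 in U87-MG. The medians of all genes lay within 0.0213 of 0 in these comparisons. For the interferon-gamma genes it was -0.01 and 0.06 in GL261, and -0.13 and -0.20 in U87-MG.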

How the data were processed

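Libraries were stranded and made from poly-A RNA of sorted CD11b+ cells. The submitters' processing notes name Trimmomatic, STAR, HTSeq 0.11.1 and mm10. The values deposited by the authors, 1 table for each experiment, match RPKM plus a constant of 2. That constant was read from the values and subtracted here, and negative RPKM were set to 0 before tests. In each sample 6.6% to 18.0% of the expressed rows lay below the constant. A plain read density cannot be negative, so the values carry a further adjustment whose kind is unknown. The tables hold 35 of the 40 samples; 3 naive nude, 1 anti-PD-1 and 1 combination sample were not analysed here. The columns of the U87-MG table carry no replicate numbers.

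Groups were compared with limma 3.58.1 (R 4.3.3) on log2(RPKM + 1), moderated with a trend over the mean, in protein-coding genes whose mean over the samples of a fit reached 1 RPKM. Vehicle and naive were fitted on their own, and otherwise all tumor groups of a table together. The study's own test, NOISeq, was not available. Symbols were matched to GENCODE M21 for 98.8% of rows. The members and the gene lists were chosen with earlier results of these data known. Member tests are printed where the unadjusted p was under 0.05 or the groups did not overlap, list genes where the adjusted p was under 0.05, at most 4 for each list and comparison, those of largest difference, and 3 genes of highest r for each member. A gene that these rules name is not reported here. Intervals between peptides are printed for every tested member. Levels were read with pandas 2.3.3 and numpy 2.4.6 in Python 3.11.15, and drawn with matplotlib 3.10.9.

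The tests were run on simulated data in which 200 genes were given a log2 change of 1. Of these, 193 were recovered in the design of GL261 at 21 DPI (9440 genes), 193 at 28 DPI (9737 genes) and 176 in U87-MG (9664 genes). There were 12, 9 and 14 false calls in the same order. The simulated noise was drawn independently for each gene and sample, so these counts do not cover variation that genes share. Alternatives were other pseudocounts, filters and scalings, fits of only the groups compared, the naive samples added, the replicate number as a block, 1 residual degree of freedom less, and leaving out each sample. For 28 DPI samples, p-values measure the spread between animals, and at 21 DPI that between pools of 2.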

Additional observations from a re-analysis of the deposited data

Results flagged for a closer look

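Lag3 differed in opposite directions between 7aaRGD and vehicle in the 2 tumor models at 21 DPI. The log2 difference was 0.64 in GL261, where each 7aaRGD sample was above each vehicle sample, and -0.40 in U87-MG, where each was below. The means of the control peptide 7aaRAE lay on the same side of vehicle, with overlapping samples. They were 97.5 against 74.4 RPKM in GL261 and 212 against 262 RPKM in U87-MG. Between 7aaRGD and 7aaRAE the log2 difference was 0.24 in GL261 and -0.06 in U87-MG. The difference between the models was not tested, since their tables were normalized separately. None of these log2 differences passed limma's test.

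Ido1 had 1 sample apart from the other 3 in the 7aaRGD group at 28 DPI, with -0.0084, -0.0017, 0.0700 and 0.0037 RPKM once the constant of 2 was subtracted, before negative values were set to 0. The gap of the highest sample made up 0.846 of the range of the group, above Dixon's critical value for 4 samples. Chance sets apart about 1 in 20 groups, and all 4 values were below 0.1 RPKM.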

How the results depend on the processing

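Of 641 values of the checkpoint genes under the alternatives, 0 changed direction against a called difference. Of 21 differences past the threshold, 18 stayed past it under every alternative in which the gene was tested and with any sample left out; the exceptions were Cd274 with anti-PD-1 against vehicle and Sirpa and Lag3 with the combination against vehicle. Of the 9 tested genes, 2 passed with anti-PD-1 against vehicle; this became 1 with a filter of 5 RPKM, under which Pdcd1 was no longer tested, and ranged from 1 to 4 when 1 sample was left out. The counts of checkpoint genes in the other comparisons stayed within 1.5 times. The count of all genes with 7aaRGD against vehicle at 21 DPI, 14, was not stable: it was 0 with a pseudocount of 0.1, a filter of 5 RPKM, the block, 1 residual degree of freedom less or genes of every type tested rather than protein-coding ones, 1 with only the groups compared, 9 with median-of-ratios scaling, 52 with no filter and 74 with the naive samples added. Residuals spanned 7 of 8 possible dimensions in the GL261 table of 21 DPI and 9 of 10 in that of 28 DPI, so these fits may count 1 degree of freedom too many; with 1 less, the combination against vehicle had adjusted p = 0.0563 for Sirpa and 0.0561 for Lag3. With the replicate number as a block, the counts were 8 for vehicle against naive, 2 for anti-PD-1, 4 for the combination and 5 for the combination against 7aaRGD, with adjusted p = 0.0892 for Sirpa and 0.0941 for Lag3 with the combination. Little sign of pairing by number was seen in the deposited values. Residuals of same-numbered samples correlated above 0.1 in 1 of the 9 pairs of 21 DPI samples and in 3 of the 19 of 28 DPI samples, and 1 of 9 and 3 of 14 samples correlated best with their own number. Because these values carry an adjustment of unknown kind, the correlations cannot decide whether the samples were paired. No paired analysis was possible in U87-MG because its columns carry no numbers. Without the filter, Sirpa and Lag3 had adjusted p = 0.0578 and 0.0741 with the combination, and Ido1, then tested, had 0.35 ± 0.09, adjusted p = 0.021 for vehicle against naive and 0.11 ± 0.05, adjusted p = 0.124 for the combination against vehicle. Median-of-ratios scaling moved the median of all genes between vehicle and naive from -0.14 to -0.0014 on the log2 scale.

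Limits were the unknown depth, the low levels of Pdcd1, Pvr, Lilrb4a and Ido1, the shared sequence of Lilrb4a, 3 or 4 samples a group, and a sort in which several myeloid cell types and traces of lymphocytes are measured together.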
